A study of Mus musculus with 8 samples.

Results

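The 8 transcription and chromatin regulators of the growth hormone response of the liver, *Cux2*, *Trim24*, *Tox*, *Cux1*, *Ezh1*, *Ezh2*, *Id2* and *Id3*, were followed in liver RNA-seq of male mice. They were chosen by gene symbol, are 8 of the 24940 genes in the count table, and were all among the 12340 genes that passed the filter on low counts. The labels describe C57BL/6 livers with the genotypes Bcl6(fl/fl), FXR(homo), here called FxrKO, and the same with Alb-Cre, here called Bcl6LKOFxrKO, with 4 livers in each. Both groups therefore lack the bile acid receptor FXR in the whole body and carry floxed *Bcl6*, and they differ in Albumin-Cre, which deletes *Bcl6* in hepatocytes and leaves the gene in the other cells of the liver. No group with FXR, and none with neither allele, was analysed here, so the difference described is that of Albumin-Cre with *Bcl6* deletion on an FXR-null background. No liver with Albumin-Cre and intact *Bcl6* was analysed, so effects of Cre and of *Bcl6* loss cannot be told apart. Direct effects of the deletion and later ones cannot be told apart either. Ages, cages and the feeding state of each mouse were not given in the labels, and single livers are called liver 1 to liver 4 of their genotype in the order of the sample list.

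Growth hormone is released in pulses in male mice and nearly continuously in females, and the liver reads the pattern mainly through the receptor GHR, the kinase JAK2 and the transcription factor STAT5B. BCL6 is a repressor that binds many of the same DNA sites as STAT5 and is more abundant in male liver, whereas CUX2 is a homeodomain factor known from female mouse liver, where it lowers male-biased genes. TRIM24 is a chromatin reader and cofactor of nuclear receptors, TOX is a high mobility group box protein best known from T cells, EZH1 and EZH2 are the alternative methyltransferases of Polycomb repressive complex 2, and ID2 and ID3 bind basic helix-loop-helix proteins and keep them off DNA.

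Among the 8 genes, *Cux2*, *Trim24* and *Ezh1* were higher in Bcl6LKOFxrKO than in FxrKO livers and *Cux1* was lower. *Tox*, *Ezh2*, *Id2* and *Id3* did not pass the test. Genes were tested in edgeR by its quasi-likelihood method, p-values were adjusted by Benjamini-Hochberg over the 12340 genes and called under 0.05, and folds are Bcl6LKOFxrKO over FxrKO. The same test called 29.7% of all tested genes, 16.2% higher and 13.5% lower, so 4 calls among 8 genes are to be read against a transcriptome in which calls were common. The 4 called genes were also those whose groups did not overlap, which held for 31.3% of the tested genes, 16.1% higher and 15.2% lower. Over all tested genes the median log2 fold change was 0.01.

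Libraries held 7586241 to 11839503 counts on genes. Levels are CPM, counts scaled by library size with TMM factors. Where genes are compared with each other they are RPKM, the CPM per kilobase of the length deposited for the counted transcript. The 50 most counted genes took 41.7% to 45.1% of the counts in Bcl6LKOFxrKO livers and 31.2% to 32.6% in FxrKO livers, and scaling to total counts alone moved the median log2 fold change of all genes to −0.15. The deleted gene checked the labels. *Bcl6* was at 56.3, 65.2, 21.2 and 55.6 CPM in the FxrKO livers and at 11.9, 4.61, 5.55 and 7.72 CPM in the Bcl6LKOFxrKO livers, a log2 fold change of −2.72 ± 0.40 (SE, edgeR adjusted p = 0.00123). The groups did not overlap, and FxrKO liver 3 was the lowest of its group. *Nr1h4*, which encodes FXR, kept mRNA in both genotypes at 60.0 ± 2.46 and 43.5 ± 3.69 CPM (SD, n = 4 each). It was called lower in Bcl6LKOFxrKO livers (log2 fold change −0.46 ± 0.10, SE, edgeR adjusted p = 0.00497), without overlap. Whether those reads cover the disrupted part of the gene was not analysed here.

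*Cux2* (NM_001312908, mm10 chromosome 5, 121860216 to 122049851, minus strand) showed the largest difference of the 8. The 4 FxrKO livers had 3, 3, 20 and 50 counts, and the 4 Bcl6LKOFxrKO livers had 701, 795, 992 and 943 counts. As levels these were 0.312, 0.375, 2.15 and 4.73 CPM against 70.6, 96.5, 96.6 and 85.6 CPM. The lowest Bcl6LKOFxrKO liver was 14.9 times the highest FxrKO liver. FxrKO livers 1 and 2 stood at the 3 counts that serve as the detection floor, while FxrKO livers 3 and 4 were clearly above it.

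Mean *Cux2* levels were 1.89 ± 2.08 CPM and 87.3 ± 12.3 CPM (SD, n = 4 each), a log2 fold change of 5.45 ± 0.56 (SE, 95% interval 4.16 to 6.74, edgeR adjusted p = 0.000242) or 43.7-fold. The exact two-sided permutation test over the 70 orderings of the livers gave p = 0.029, the smallest it can give with 4 against 4. The size of this difference depended on one library. Without FxrKO liver 4 the log2 fold change was 6.48 (edgeR adjusted p = 3.61e-06), whereas leaving out any other liver gave values from 5.09 to 5.54. *Cux2* was spread widely among FxrKO livers and narrowly among Bcl6LKOFxrKO livers. The highest FxrKO liver was 15.2 times the lowest, against 1.37 times among the Bcl6LKOFxrKO livers, and its SD on the log2 scale lay at the 99.8th percentile of tested genes in FxrKO and at the 39.1st in Bcl6LKOFxrKO livers. Whether the spread differs between genotypes was not tested, and at 3 counts the log2 level of a liver is imprecise.

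FxrKO liver 4, with the most *Cux2* of its genotype, was also the highest of the 4 for 10 of the 21 female-biased genes that had at least 10 counts in some FxrKO liver, and the lowest for 19 of 30 male-biased genes. FxrKO liver 3, second in *Cux2*, was the highest for 2 of the 21 and the lowest for 4 of the 30. The 2 FxrKO livers with *Cux2* above the floor thus differed in these readouts. All of these list genes share the 4 libraries and no such count was made over all genes, so the counts are a description.

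*Trim24* (NM_001272064, chromosome 6, 37870811 to 37968445, plus strand) rose as well. Its levels were 18.7, 23.6, 21.7 and 28.9 CPM in FxrKO livers and 54.9, 52.9, 61.6 and 47.4 CPM in Bcl6LKOFxrKO livers. The groups were apart, with the lowest Bcl6LKOFxrKO liver at 1.64 times the highest FxrKO liver, and FxrKO liver 4 was again the highest of its group. Means were 23.2 ± 4.26 and 54.2 ± 5.85 CPM (SD, n = 4 each), a log2 fold change of 1.22 ± 0.14 (SE, 95% interval 0.91 to 1.53, edgeR adjusted p = 4.29e-05, exact permutation p = 0.029) or 2.33-fold. With single livers left out in turn, the log2 fold change lay between 1.13 and 1.34.

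In bulk liver, more cells of a type and more RNA per cell cannot be told apart. Of 12 stellate cell and fibroblast markers, 9 rose, none fell and 3 were not called, and their summed level was 264 to 367 CPM in FxrKO and 544 to 657 CPM in Bcl6LKOFxrKO livers. With single livers left out 7 to 11 of them rose, and the full fit called 16.2% of all tested genes higher. None of these markers was at 0. *Trim24* and these markers were higher in the same livers, and the part of such cells in the *Trim24* level was not tested.

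The promoter windows of *Cux2* and *Trim24* at the counted starts are shown to give the letters there. Each line gives the 250 bases before the start of the counted transcript, 5′ to 3′ on the gene's strand, from RefSeq on GRCm38.p6, with CpG dinucleotides in capitals.
*Cux2*, chr5:122049852-122050101, minus strand: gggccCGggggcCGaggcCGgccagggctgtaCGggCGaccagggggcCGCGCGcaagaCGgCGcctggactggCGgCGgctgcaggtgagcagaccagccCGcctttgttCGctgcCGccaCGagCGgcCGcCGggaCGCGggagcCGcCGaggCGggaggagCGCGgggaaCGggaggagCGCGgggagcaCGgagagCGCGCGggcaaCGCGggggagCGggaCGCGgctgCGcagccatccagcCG
*Trim24*, chr6:37870561-37870810, plus strand: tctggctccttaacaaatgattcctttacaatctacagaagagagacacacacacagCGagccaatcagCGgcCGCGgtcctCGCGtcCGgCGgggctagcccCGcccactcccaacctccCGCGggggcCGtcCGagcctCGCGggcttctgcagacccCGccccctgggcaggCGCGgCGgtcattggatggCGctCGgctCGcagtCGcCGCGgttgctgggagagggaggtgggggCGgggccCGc
The *Cux2* window was 80.0% G and C with 40 CpG dinucleotides, more than 98.7% of the 32851 windows of this length. The *Trim24* window was 69.6% G and C with 27 CpG dinucleotides, more than 91.4% of them. The median window held 52.4% G and C and 6 CpG dinucleotides. Many CpG dinucleotides were not particular to genes that rose. The windows of *Ezh2*, *Id2*, *Id3* and *Cux1* held 23, 18, 18 and 18, and that of *Ezh1*, which rose, held 14. Another window of *Cux2* and of *Trim24*, at other starts, held 3 and 1. Of the 8 genes 7 had an entry in the table, and *Tox* had none.

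Windows of this kind were searched on both strands for TTCNNNGAA, the palindrome of STAT factors, which 7.02% of all windows hold, for its narrower form TTCCNNGAA, shared by STAT5 and BCL6, which 4.06% hold, and for ATTGAT, the core letters of the HNF6 and CUX2 site, which 6.72% hold. The search took all 9 windows of the 7 genes, of which 6, for 6 genes, end at the start of the counted transcript and the others, a second window of *Cux2* and of *Trim24* and the window of *Cux1*, at another start. None held any of these letters, which says only that they are absent from these 250 bases.

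*Tox* (NM_145711, chromosome 4, 6687386 to 6990723, minus strand) did not follow *Cux2* and *Trim24*. It was measured at 7.91, 4.62, 5.59 and 7.85 CPM in FxrKO livers and at 8.36, 7.65, 9.35 and 3.90 CPM in Bcl6LKOFxrKO livers. The groups overlapped fully, since Bcl6LKOFxrKO livers 3 and 4 were the highest and the lowest of all 8. The log2 fold change was 0.16 ± 0.27 (SE, 95% interval −0.41 to 0.73, edgeR adjusted p = 0.686, exact permutation p = 0.71), an interval that leaves room for a change of either sign but not for one of the size seen for *Trim24*.

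Markers of T and NK cells, in which *Tox* is known to be active, were few. Of 16 markers 14 were in the table and 2 passed the filter, *Lck* and *Thy1*, both higher, and 1 of them lost its call without Bcl6LKOFxrKO liver 3 or liver 4. They had at most 7 and 11 counts in an FxrKO liver and up to 27 and 31 in a Bcl6LKOFxrKO liver. Among markers this low the filter favours those high in Bcl6LKOFxrKO livers, so the direction of these calls is no evidence about such cells. With no filter 5 of the 14 were called higher and none lower. The 14 summed to 4.41 to 5.49 CPM in FxrKO livers and 9.57 to 18.7 CPM in Bcl6LKOFxrKO livers. *Cd3e*, part of the T cell receptor complex, had at most 3 counts in an FxrKO liver and at most 10 in a Bcl6LKOFxrKO liver. The part of such cells in the *Tox* level was not tested. A lncRNA on the opposite strand, *Gm11802*, shares 260 exon bases with *Tox*, 6.56% of its exons, and the counting command in the file header sets no strand.

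**Figure D1:**
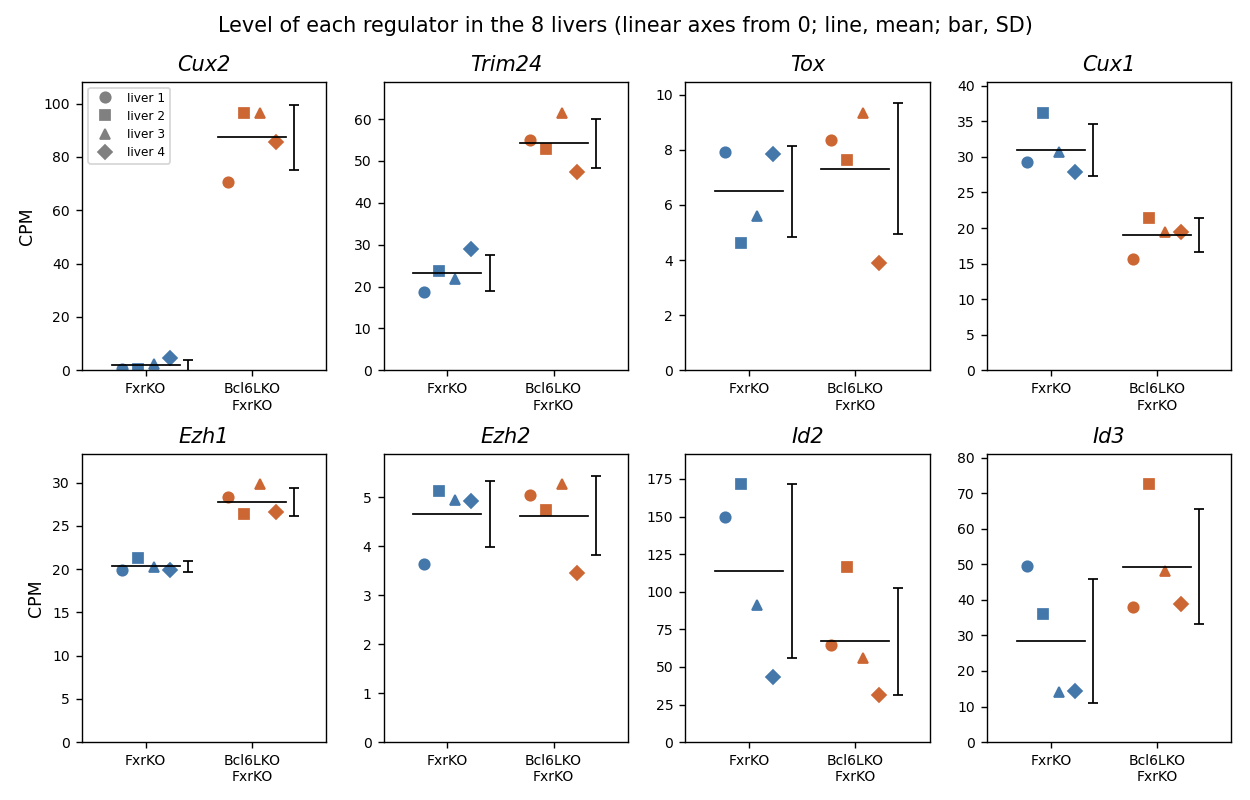
Level of each gene in CPM (linear vertical axes from 0) in each of the 4 FxrKO (blue) and 4 Bcl6LKOFxrKO (orange) livers, with the group mean as a line and its SD as a bar, cut at 0 for *Cux2* in FxrKO. *Cux2*, *Trim24* and *Ezh1* are higher in every Bcl6LKOFxrKO liver than in any FxrKO liver and *Cux1* is lower, while the groups overlap for *Tox*, *Ezh2*, *Id2* and *Id3*.

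*Cux1* (NM_001291238, chromosome 5, 136248135 to 136567490, minus strand), the widely expressed relative of *Cux2*, went the other way. Its levels were 29.2, 36.2, 30.6 and 27.9 CPM in FxrKO livers and 15.7, 21.5, 19.5 and 19.4 CPM in Bcl6LKOFxrKO livers. Every Bcl6LKOFxrKO liver was below every FxrKO liver, and the lowest FxrKO liver was 1.30 times the highest Bcl6LKOFxrKO liver. Means were 31.0 ± 3.66 and 19.0 ± 2.41 CPM (SD, n = 4 each), a log2 fold change of −0.70 ± 0.13 (SE, 95% interval −0.99 to −0.41, edgeR adjusted p = 0.00172, exact permutation p = 0.029).

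The transcript counted for *Cux1* matters to this value. *Cux1* is a complex locus that also encodes CASP, a Golgi protein without the DNA-binding domains of the transcription factor. The kept transcript matches the GENCODE model Cux1-207, which codes for 678 residues, whereas the longest model, Cux1-206, codes for 1517 residues. Of the exon bases of the kept model 42.3% lie in the longest one and 57.7% do not, so the *Cux1* count mixes the products and the value for the transcription factor alone is unknown.

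Per kilobase, *Cux2* passed *Cux1* in the Bcl6LKOFxrKO livers. The ratio of their RPKM levels within a liver was 0.00661, 0.00640, 0.0434 and 0.105 in FxrKO livers and 2.78, 2.78, 3.07 and 2.73 in Bcl6LKOFxrKO livers. *Cux1* was thus above *Cux2* in all FxrKO livers and below it in all Bcl6LKOFxrKO livers, and the 4 ratios of the latter were close together. The ratio carries the limit of the *Cux1* transcript given above. It also rests on the deposited length of 4909 bases for *Cux2*, whose matched GENCODE model holds 8784 exon bases.

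*Ezh1* (NM_007970, chromosome 11, 101191115 to 101226463, minus strand) was slightly higher in Bcl6LKOFxrKO livers. It was measured at 19.9, 21.2, 20.3 and 19.9 CPM in FxrKO livers and at 28.4, 26.3, 29.8 and 26.6 CPM in Bcl6LKOFxrKO livers. The groups did not overlap, by a margin of 1.24 times, and the livers within each genotype lay closer together on the log2 scale than for any of the other 7 genes. The log2 fold change was 0.45 ± 0.11 (SE, 95% interval 0.22 to 0.69, edgeR adjusted p = 0.00782, exact permutation p = 0.029) or 1.37-fold. With libraries scaled to total counts alone it was 0.29 with an adjusted p of 0.0699, so this call rested on the scaling.

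*Ezh2* (NM_007971, chromosome 6, 47530274 to 47595030, minus strand), the form of dividing cells, was low in both genotypes. Its levels were 3.64, 5.12, 4.94 and 4.92 CPM in FxrKO livers and 5.04, 4.73, 5.26 and 3.45 CPM in Bcl6LKOFxrKO livers, fully overlapping. The log2 fold change was −0.01 ± 0.21 (SE, 95% interval −0.46 to 0.44, edgeR adjusted p = 0.970, exact permutation p = 0.83), and its sign changed with the setting. A lincRNA on the opposite strand, *Gm26625*, shares 92 exon bases with *Ezh2*, 3.30% of its exons.

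Of 17 tested genes of DNA replication and mitosis, 3 rose, *Mki67* (log2 fold change 1.87), *Top2a* (1.29) and *Ccna2* (0.81), none fell and 14 were not called, with summed levels of 78.7 to 94.97 CPM in FxrKO and 92.1 to 123 CPM in Bcl6LKOFxrKO livers. Without Bcl6LKOFxrKO liver 3, 7 of them rose. The 3 of 17 stand beside 16.2% of all tested genes called higher. The ratio of *Ezh2* to *Ezh1* RPKM was 0.292, 0.384, 0.387 and 0.394 in FxrKO livers and 0.282, 0.286, 0.281 and 0.206 in Bcl6LKOFxrKO livers. *Ezh1* was above *Ezh2* per kilobase in all 8 livers, and the ratio was lower in each Bcl6LKOFxrKO liver, narrowly so for the nearest pair.

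Subunits and cofactors of the Polycomb complex and the enzymes that remove its mark were listed together. Of 12 subunits, cofactors and H3K27 demethylases 10 were tested, none rose, 2 fell and 8 were not called, where 13.5% of all tested genes were called lower, and their median log2 fold change was −0.08 against 0.01 for all tested genes. The genes that fell were *Rbbp4* (log2 fold change −0.88 ± 0.11, SE, edgeR adjusted p = 5.21e-05), a histone-binding subunit shared with other complexes, and *Mtf2* (−1.13 ± 0.27, SE, edgeR adjusted p = 0.00763), which helps to recruit the complex. The core subunits *Eed* and *Suz12*, at log2 fold changes of −0.06 and −0.12, were not called.

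*Id2* (NM_010496, chromosome 12, 25093799 to 25096092, minus strand) varied more between livers of one genotype than between genotypes. It was measured at 150, 171, 91.4 and 43.3 CPM in FxrKO livers and at 64.3, 116, 56.1 and 31.1 CPM in Bcl6LKOFxrKO livers. Liver 2 was the highest and liver 4 the lowest of each genotype, but these numbers follow the sample list and mark no pairs. The groups overlapped. The log2 fold change was −0.77 ± 0.52 (SE, 95% interval −2.00 to 0.46, edgeR adjusted p = 0.315, exact permutation p = 0.29), an interval that holds both 0 and a large fall.

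*Id3* (NM_008321, chromosome 4, 136143822 to 136145392, plus strand) had a mean on the other side. It was measured at 49.4, 36.1, 14.1 and 14.3 CPM in FxrKO livers and at 38.0, 72.5, 48.2 and 38.9 CPM in Bcl6LKOFxrKO livers. FxrKO livers 3 and 4 were the lowest of all, and FxrKO liver 1 lay among the Bcl6LKOFxrKO livers. The log2 fold change was 0.79 ± 0.45 (SE, 95% interval −0.24 to 1.83, edgeR adjusted p = 0.224, exact permutation p = 0.14), and without FxrKO liver 1 it was 1.20 with an adjusted p of 0.0542.

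The pair was also read within each liver. The ratio of *Id3* to *Id2* RPKM was 0.441, 0.282, 0.206 and 0.441 in FxrKO livers and 0.790, 0.834, 1.15 and 1.67 in Bcl6LKOFxrKO livers. The groups were apart, with *Id2* above *Id3* in 6 of the 8 livers and *Id3* above *Id2* only in Bcl6LKOFxrKO livers 3 and 4. This ratio was not tested, and it was formed with both levels in view. It rests on the deposited length of 948 bases for *Id3*, whose matched GENCODE model holds 1278 exon bases.

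*Id1*, the nearest relative of *Id2* and *Id3* and a standard target of BMP signalling, rose. It was measured at 4.16, 4.25, 1.29 and 2.65 CPM in FxrKO livers and at 21.4, 18.8, 13.4 and 26.7 CPM in Bcl6LKOFxrKO livers, with no overlap. The log2 fold change was 2.71 ± 0.31 (SE, edgeR adjusted p = 5.58e-05). Across all tested genes 16.2% were called higher and 13.5% lower. Of 19 genes of the BMP-SMAD pathway, *Id1* included, 6 rose, 3 fell and 10 were not called (median log2 fold change 0.05). With any 1 of the 8 livers left out, 3 or 4 rose and 1 to 3 fell. Among the others the inhibitory *Smad6* (1.25) and the receptor *Acvrl1* (0.81) rose. The signal carrier *Smad9* (−2.04, edgeR adjusted p = 0.00602) fell. The signal carrier *Smad5* (−0.36, edgeR adjusted p = 0.0491) and the receptor *Acvr1* (−0.50, edgeR adjusted p = 0.0400) also fell. In 6 of the 8 fits without a liver only 1 of the 19 was called lower. *Hamp*, the hepcidin gene and main liver readout of this pathway, was at a log2 fold change of 0.08 and was not called. Of 12 endothelial markers, cells in which *Id1* and *Id3* are active, 1 rose (*Stab2*, 0.63; 2 without Bcl6LKOFxrKO liver 2, FxrKO liver 3 or FxrKO liver 4, and 3 without Bcl6LKOFxrKO liver 1) and 11 were not called, with summed levels of 236 to 320 CPM and 304 to 398 CPM, and their part in the *Id* levels was not tested.

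**Figure D2:**
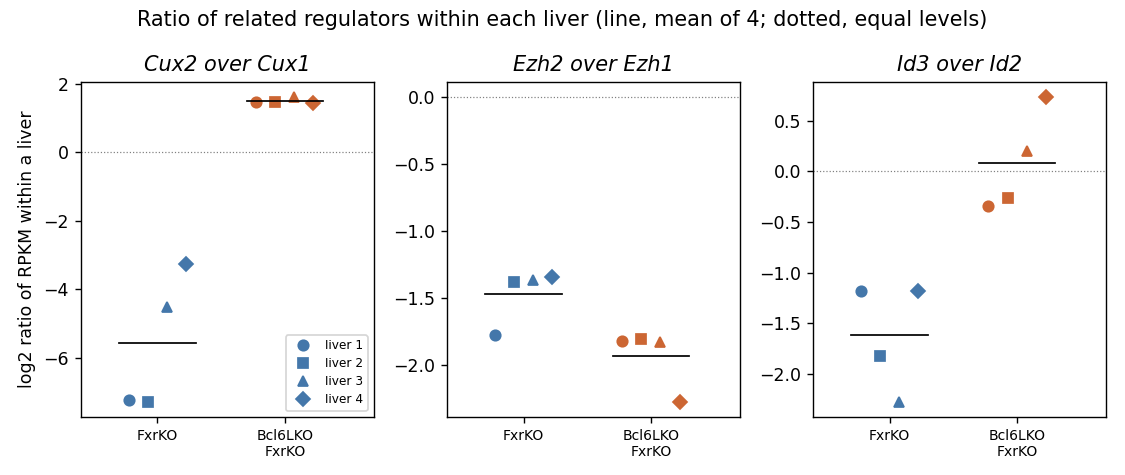
Ratio of RPKM levels of related genes within each liver (vertical axes, log2 scale, not from 0) for *Cux2* over *Cux1*, *Ezh2* over *Ezh1* and *Id3* over *Id2*, with the mean of the 4 livers of a genotype as a line and equal levels as a dotted line. The groups are apart in each panel, by least for *Ezh2* over *Ezh1*, where the closest livers are at −1.78 and −1.81.

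The close relatives of the 8 genes were read beside them. Of 16 relatives 9 were tested, and *Id1* was the only one called, where 29.7% of all tested genes were called. So few genes do not show whether changes were shared within families. *Onecut1* and *Onecut2*, cut-domain factors like *Cux2*, were at log2 fold changes of 0.05 and 0.03, the *Trim24* relatives *Trim28* and *Trim33* at −0.04 and −0.20, and *Tox4* at 0.18. The binding partners of the ID proteins, *Tcf3*, *Tcf4* and *Tcf12*, were at 0.28, 0.14 and 0.05. Those that did not pass the filter included *Onecut3*, *Trim66*, *Tox2*, *Tox3* and *Id4*. The 95% interval for *Onecut1*, which encodes HNF6, ran from −1.21 to 1.30, too wide to show that its level was the same.

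Ordered per kilobase, the mean RPKM levels in FxrKO livers were 89.9 for *Id2*, 30.0 for *Id3*, 10.2 for *Cux1*, 4.86 for *Ezh1*, 3.83 for *Trim24*, 2.29 for *Tox*, 1.77 for *Ezh2* and 0.385 for *Cux2*. The ranges of *Id2* and *Id3*, of *Ezh1* and *Trim24* and of *Tox* and *Ezh2* overlapped, so those neighbours were not separated. In Bcl6LKOFxrKO livers the order was 52.8 for *Id2*, 52.1 for *Id3*, 17.8 for *Cux2*, 8.93 for *Trim24*, 6.64 for *Ezh1*, 6.26 for *Cux1*, 2.57 for *Tox* and 1.76 for *Ezh2*. There the overlapping neighbours were *Id2* and *Id3*, *Ezh1* and *Cux1*, and *Tox* and *Ezh2*. *Trim24* was above *Ezh1* and *Cux1* in Bcl6LKOFxrKO livers, while in FxrKO livers it was below *Cux1* and not separated from *Ezh1*. With the deposited lengths *Cux2* thus went from the last to the third place. Those lengths were 4909 bases for *Cux2* and 6068 for *Trim24*. The GENCODE models matched to the same transcripts hold 8784 and 3940 exon bases. The places of these genes rest on the length used, and the order with the other lengths was not computed.

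**Figure D3:**
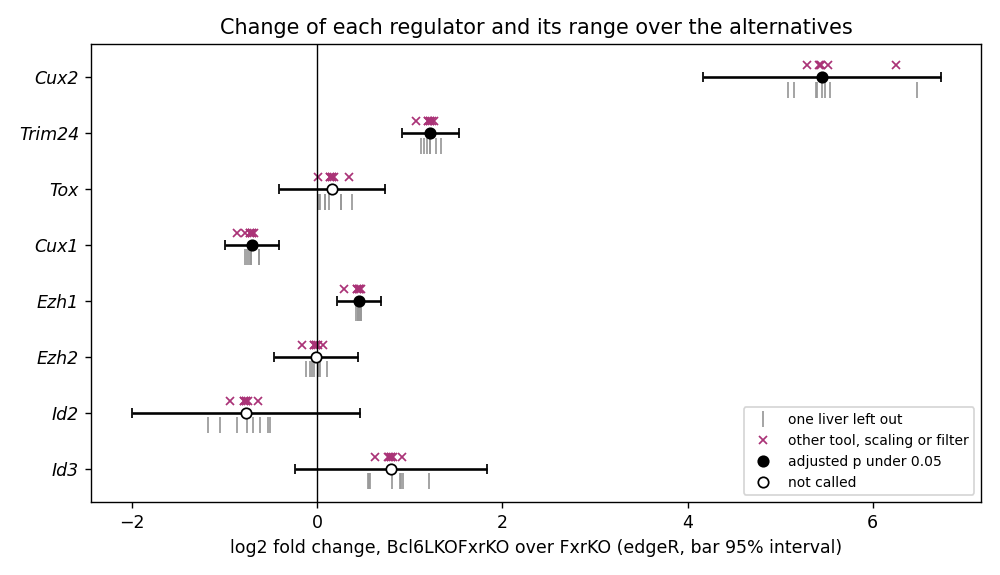
Log2 fold change of each gene, Bcl6LKOFxrKO over FxrKO (horizontal axis), with its 95% interval from edgeR, filled where the adjusted p was under 0.05. Grey ticks below give the fits without a single liver and crosses above give other tools, scalings and filters: *Cux2* runs from 5.09 to 6.48, and *Ezh2* is the only gene with values on both sides of 0.

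Genes upstream of the 8 in the growth hormone pathway are ordered from receptor to targets. *Ghr* was measured at 373, 412, 458 and 441 CPM in FxrKO livers and at 2207, 1984, 2350 and 1571 CPM in Bcl6LKOFxrKO livers. The groups were far apart, at a log2 fold change of 2.27 ± 0.15 (SE, edgeR adjusted p = 2.10e-07). Among all tested genes 16.2% were called higher and 13.5% lower. Of 23 tested genes of growth hormone receptor signalling 6 rose, 1 fell and 16 were not called (median log2 fold change 0.03). With any single liver left out 4 or 5 of the 23 rose. The kinase genes *Jak2* (0.22) and the factors *Stat5a* (−0.10) and *Stat5b* (−0.06) were among the 16. *Src*, a kinase that the receptor can use beside JAK2, rose (1.36), as did the receptor-like *Sirpa* (0.94), and *Irs1*, an adaptor shared with insulin, fell (−0.50), a call lost without FxrKO liver 1, FxrKO liver 4 or Bcl6LKOFxrKO liver 2.

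The usual transcriptional readouts of growth hormone signalling were mixed. *Socs2*, a STAT5 target that feeds back on the receptor, rose (log2 fold change 1.67 ± 0.47, SE, edgeR adjusted p = 0.0318). Its groups nearly touched, with FxrKO liver 1 at 24.1 CPM and Bcl6LKOFxrKO liver 4 at 24.8 CPM. *Cish*, of the same family, was at 1.07 ± 0.48 (SE, edgeR adjusted p = 0.137). *Igf1*, the main endocrine product, was at −0.30 ± 0.20 (SE, edgeR adjusted p = 0.283). Of the last 2 the intervals include 0. Growth hormone itself was not measured.

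Of 18 transcription factors of the liver, among them partners of the 8 genes at sex-biased genes, 1 rose, 7 fell and 10 were not called (median log2 fold change −0.37). With single livers left out 6 to 8 of them fell, and the full fit called 13.5% of all tested genes lower. The gene that rose was *Esr1*, the oestrogen receptor (1.22, edgeR adjusted p = 0.0448), a call that held in only 1 of the 8 fits made without a liver, that without Bcl6LKOFxrKO liver 4. Those that fell most clearly were *Foxa1* (−1.64), a pioneer factor, *Ppara* (−0.99), the fatty acid receptor, and *Zhx2* (−0.85), a repressor.

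The genes that growth hormone patterns control moved in opposite directions by sex bias. The full fit called 16.2% of all tested genes higher and 13.5% lower. Of 30 male-biased genes 27 fell, 1 rose and 2 were not called (median log2 fold change −4.69). Of 30 female-biased genes 24 rose, 1 fell and 5 were not called (median 3.53). Both medians were the same with the 7 male-biased and 8 female-biased genes at most 3 counts in one genotype set to their bounds. Examples are *Mup1*, a major urinary protein at least 386-fold lower, *Hsd3b5*, a steroid dehydrogenase at least 816-fold lower, and *Sult2a1*, a sulfotransferase at least 2207-fold higher. The 3 genes are bounded by 3 counts per library, and the *Mup*, *Sult2a* and *Cyp3a* families have near-identical copies between which reads with 1 location cannot be shared out. The exceptions were *Ihh* in the male-biased list (1.43) and *Cyp39a1* in the female-biased list (−2.14). These lists were written with earlier results of these livers known, and their direction is no independent evidence.

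**Figure D4:**
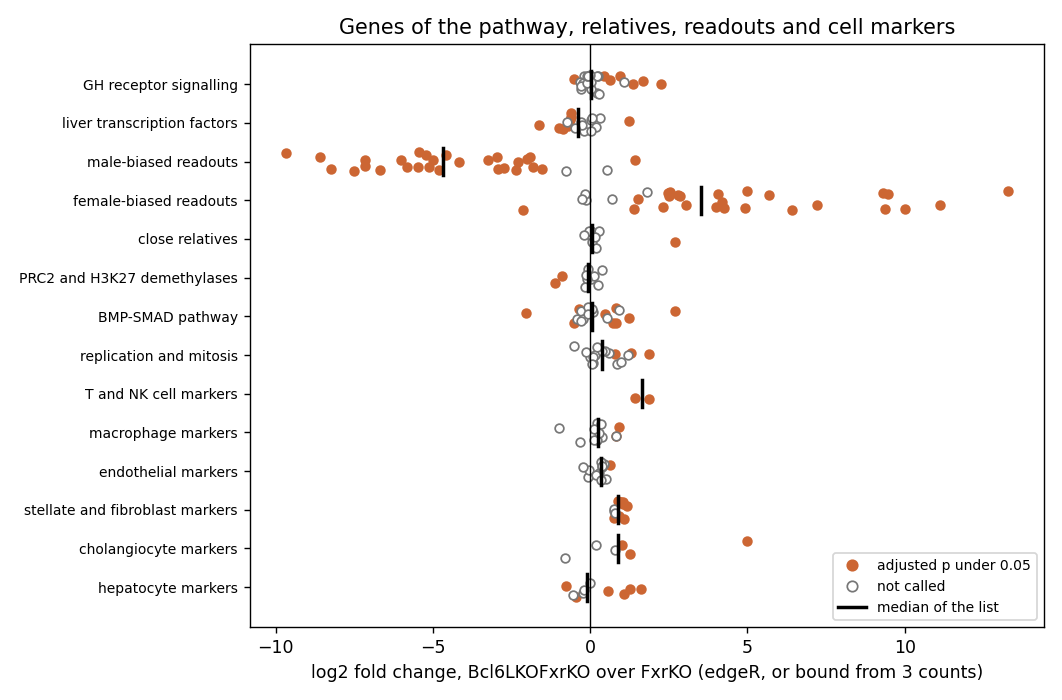
Log2 fold change, Bcl6LKOFxrKO over FxrKO (horizontal axis), of the tested genes of 14 lists, 1 point per gene and a bar at the list median, with genes at 3 counts or fewer throughout a genotype drawn at their bound. Male-biased genes lie mostly left (median −4.69) and female-biased genes mostly right (3.53), while growth hormone receptor signalling is centred near 0 (0.03) with *Ghr* at its right end.

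Among 9043 candidate genes, profiles across the 8 livers closest to *Cux2* were those of *Igdcc4*, *Serpina6* and *Dnah11*, at root mean square distances of 0.584, 0.731 and 0.839 on the centred log2 CPM scale, where the median candidate was at 3.17. *Igdcc4* was at mean levels of 0.721 and 39.5 CPM, *Serpina6*, which encodes the corticosteroid-binding globulin, at 455 and 23907 CPM and *Dnah11*, an axonemal dynein gene, at 0.361 and 37.0 CPM. For *Trim24* the nearest were *Dcn* (0.110), *Rgs5* (0.130) and *Ces1c* (0.133), of which the first pair belong to the stellate cell list above. For *Cux1* they were *Pgpep1* (0.107), *Pdhb* (0.117) and *Mat2a* (0.119), and for *Ezh1* they were *Tnfaip1* (0.0601), *Tyk2* (0.0633) and *Txnl1* (0.0653). These distances take in the difference between genotypes as well as that between livers of one, and are given as a description over 8 livers.

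Other cell markers frame these levels, where 16.2% of all tested genes were called higher and 13.5% lower. Of 12 macrophage markers 2 rose, *Lyz2* (log2 fold change 0.81) and *Cd68* (0.93), and 10 were not called, at summed levels of 554 to 820 CPM in FxrKO and 750 to 1058 CPM in Bcl6LKOFxrKO livers. Of 6 tested cholangiocyte markers 3 rose, *Prom1*, *Spp1* and *Krt19*, and 3 were not called, at 58.9 to 86.7 CPM and 110 to 217 CPM, and *Prom1* is also in the female-biased list. *Prom1* and *Krt19* had at most 13 and 20 counts in an FxrKO liver. Among genes this low the filter favours those high in Bcl6LKOFxrKO livers, so the direction of these calls is no evidence about such cells. Of 10 hepatocyte markers 4 rose, 2 fell and 4 were not called, with *Alb* the most counted and among those that rose (1.60). Of these markers 4 fell without Bcl6LKOFxrKO liver 2, and 1 in each fit without another liver except FxrKO liver 1. The part of these cells in the levels of the 8 genes was not tested.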

How the data were processed

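RNA of 8 male livers, 4 FxrKO and 4 Bcl6LKOFxrKO, was sequenced from stranded polyA libraries as single-end reads. Per the file headers and labels, the authors used STAR 2.5.2 on the mm10 genome, kept only reads that map to a single location, and deposited raw counts on exons from HOMER 4.10, with 1 transcript kept per gene and no strand option set. The labels name separate livers without pairs, and libraries of a genotype differed beyond sampling noise.

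Counts were tested in R 4.3.3 with edgeR 4.0.16 (filterByExpr, TMM, robust quasi-likelihood fits, Benjamini-Hochberg over 12340 genes). Totals of 7586241 to 11839503 counts per liver limit the precision of genes with few counts. Log2 CPM used a prior count of 2. Exact permutation tests were two-sided over 70 orderings. The edgeR step was tested on simulated data.

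The 8 genes and the 14 lists were chosen with earlier results of these data known. The genes named were the 8, *Bcl6*, *Nr1h4*, close relatives, up to 3 called genes per list and direction by adjusted p, and the 3 nearest profiles (root mean square distance, mean count at least 50) of each called gene. Not every close relative is reported here. *Jak2*, *Stat5a*, *Stat5b*, *Socs2*, *Cish*, *Igf1*, *Eed*, *Suz12*, *Hamp*, *Cd3e*, *Ihh* and *Cyp39a1* were added after their values were seen or for their role. Alternatives were DESeq2 1.42.0, limma voom 3.58.1 with sample quality weights, RLE factors, total counts alone, TMM without the 50 most counted genes, genes unfiltered, a minimum of 10 counts per liver, single livers left out and, for counts of calls, a log2 fold change above 0.5.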

Additional observations from a re-analysis of the deposited data

Results flagged for a closer look

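*Ezh2* in FxrKO liver 1, at 3.64 CPM, lay further from the other 3 livers of its genotype than Dixon's 95% limit allows. Its gap to the nearest liver was 0.862 of the range of the group. Of 20 groups examined 1 passed, and chance passes about 1 in 20.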

How the results depend on the processing

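No paired analysis was possible because the labels name no pairs. Some animal numbers follow each other across the genotypes, but nothing in the labels says that they mark pairs. Of the alternative values for the 8 genes and for all genes, 175 kept direction and call, 1 lost its call, 1 moved by over 1.5 times and 6 changed sign. The lost call was *Ezh1*, at 0.29 on the log2 scale (adjusted p = 0.0699) with total counts alone, where 2949 genes in all were called lower against 1665, and 32.3% of called genes were higher against 54.5%. The sign changes were all in *Ezh2*, not called, at 0.068 with limma voom, 0.0078 with a minimum of 10 counts per liver and −0.12 to 0.11 with single livers left out (0.03, 0.01 and 0.01 without FxrKO livers 2, 3 and 4, and 0.11 without Bcl6LKOFxrKO liver 4). *Cux2* could not be fitted with that minimum, ran from 5.09 to 6.48 with single livers left out and was 6.25 with limma voom. A log2 fold change above 0.5 or total counts alone left 2 of the 8 genes called higher.

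Of the counts of list genes, 363 stayed within 1.5 times and 57 did not. With total counts alone they became 3 lower for growth hormone receptor signalling, 0 higher for liver transcription factors (also with no filter), 3 higher for BMP-SMAD, and 1 lower each for replication and mitosis, macrophage and cholangiocyte markers. With at least 10 counts in every liver they became 0 higher and 13 lower for male-biased and 11 higher for female-biased genes, 1 lower for BMP-SMAD, 0 higher for T and NK cell, 3 higher for endothelial, 1 higher for cholangiocyte and 1 lower for hepatocyte markers, with fewer genes tested. With no filter 5 T and NK cell markers were higher. DESeq2 gave 2 male-biased genes higher, and DESeq2 and limma voom each gave 1 macrophage marker lower. With single livers left out the ranges were 0 to 1 lower for growth hormone receptor signalling, 0 to 1 higher for liver transcription factors, 1 to 2 higher for male-biased genes, 3 to 4 higher and 1 to 3 lower for BMP-SMAD, 3 to 7 higher for replication and mitosis, 1 to 2 higher for T and NK cell, 0 to 1 lower for macrophage and cholangiocyte, 1 to 3 higher for endothelial and 1 to 4 lower for hepatocyte markers. Apart from smaller numbers of genes or livers, the cause was not tested.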
